A study of Mus musculus with 2 samples.

Results

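The Wnt genes described here are the genes of the array named as Wnt ligands (Wnt followed by a number), R-spondins (Rspo), frizzled receptors (Fzd), the co-receptors Lrp5 and Lrp6, the R-spondin receptors Lgr4, Lgr5 and Lgr6, the secreted antagonists Sfrp, Dkk and Wif1, and the target gene Axin2. By these names, 48 of the 37003 genes on the array were members, and they were read by 71 probes. The name did not depend on any measured value. The RefSeq accession of 60 of the 71 probes was found in a current gene table, and all 60 had the same symbol there as on the array.

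Epithelial cells were collected from submandibular glands of female C57BL/6 mice on magnetic beads against EpCAM, an adhesion protein of epithelial cells. Cells of an age of 9 weeks (young) and of 24 months (aged) were each hybridized to 1 Agilent array, so that no difference between the ages has a replicate check and no test was made. The methods name the substrain C57BL/6N and give a commercial supplier for young mice and the institute's own facility for aged mice, so age and place of supply cannot be told apart. No allele, agent or treatment is named for either array, and the bead selection is common to both.

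Wnt ligands are lipid-modified secreted proteins that act at short range. They bind a frizzled receptor together with Lrp5 or Lrp6, and β-catenin then escapes degradation and activates genes with TCF and LEF factors. R-spondins bind Lgr receptors and keep frizzled receptors at the cell surface by removing the ligases Rnf43 and Znrf3. Secreted frizzled-related proteins and Wif1 bind the ligands themselves, whereas Dickkopf proteins block the co-receptors. In salivary glands, the pathway is known for its part in duct development and in regeneration after injury.

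Signals are background-subtracted fluorescence intensities. A relative log2 signal is the log2 of the signal minus the log2 of the 75th percentile over all probe spots of that array, which was 256 in young and 198 in aged cells. A probe was taken as measured where the scanner software marked it well above background, which held for 53.4% of probes in young and 48.5% in aged cells. The lowest such signal was 14.1 in young and 14.3 in aged cells. Each gene is given by its brightest measured probe, and all differences are aged minus young in relative log2 signal. A signal can therefore be somewhat lower in aged cells while the difference is above 0. Values after ± are errors from the error model of the software, which covers the spot and not the spread between mice. Probes placed in 10 spots each had a median standard deviation of 0.034 for the log2 difference (293 probes). In the 5653 genes with several probes measured on both arrays, the differences of the 2 brightest probes lay a median of 0.18 apart. The threshold was 2-fold, or 1 on the log2 scale.

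The results turned on 6 genes that passed 2-fold, and the probes that read them are shown here so that each value can be traced to a transcript. Each probe has 60 bases, of which bases 1 to 30 are given 5′ to 3′ in the sense of the transcript. No base is singled out by capitals. For Rspo3 and Wnt11, both probes of the gene are shown because their values are compared.
Wnt9a A_55_P2032147: cctgagtgactgcagagaatgtatttattt
Wnt11 A_55_P2507365: tgggggactcggccatccttctctggcttt
Wnt11 A_51_P503131: gaaactgataggattaaaaataacctggca
Rspo3 A_55_P2163659: ggatactactttctaacaaggtgtatctag
Rspo3 A_66_P114648: cacatgggccacttggcttaaatggttttc
Fzd2 A_51_P404077: tcacagtctacatgatcaaatacctcatga
Fzd6 A_52_P217710: ggccgagctgtcgattccccttttaagtgt
Sfrp5 A_55_P2020203: attattgctactgctgtggggccgctgatt

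The files place these probes on NCBI37 (mm9). The Wnt9a probe lies at chr11:59146953-59147012 on the forward strand and starts at base 3216 of its transcript. The Wnt11 probes lie at chr7:106003159-106003218 and chr7:106001985-106002045 on the forward strand, at transcript bases 2923 and 1515. The Rspo3 probes lie at chr10:29172930-29172989 and chr10:29172236-29172295 on the reverse strand, at transcript bases 2319 and 3013. The Fzd2 probe lies at chr11:102467613-102467672 on the forward strand, at transcript base 1868. The Fzd6 probe lies at chr15:38869107-38869166 on the forward strand, at transcript base 3455. The Sfrp5 probe lies at chr19:42272509-42272568 on the reverse strand, at transcript base 1792. The files do not state whether a probe lies in coding sequence.

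Of the 48 Wnt genes, 29 (60.4%) were measured on 1 or both arrays, beside 57.7% of all genes. Both arrays measured 23 of them, 5 by the young array alone and 1, Rspo3, by the aged array alone. In aged cells, 4 of the 23 genes measured on both fell by 2-fold or more (Wnt9a, Sfrp5, Fzd6 and Wnt11), and 0 rose as far. Over all genes measured on both arrays, 3.05% were at least 2-fold lower and 1.52% at least 2-fold higher. The median difference of the 23 genes was -0.23, with 14 differences below 0 and 9 above, beside a median of 0.09 over all 18745 genes measured on both arrays, 40.1% of which were below 0. The median of the Wnt genes minus that of all genes was -0.33. Scalings that shift all differences alike leave this distance as it is, and it was -0.23 after quantile normalization, -0.23 with loess and -0.18 with the normexp background correction.

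Genes measured on 1 array only have a lower limit of the difference. For it, the dim side was set to the lowest signal marked well above background on that array, or to the probe's signal where that was larger. The limits leave out the errors of the signals, and a probe above that lowest signal can still lack the mark. A gene measured on 1 array was kept through that array, so the direction of any limit is fixed by that choice. By these limits, Fzd2 was at least 2-fold lower and Rspo3 at least 2-fold higher. Of all genes measured on the young array only, 24.9% reached 2-fold by their limit, and of those measured on the aged array only, 52.6%. Measured differences and limits together placed 5 of the 29 Wnt genes at 2-fold or more lower and 1 higher, beside 5.14% and 2.53% of all 21346 genes kept.

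**Figure D1:**
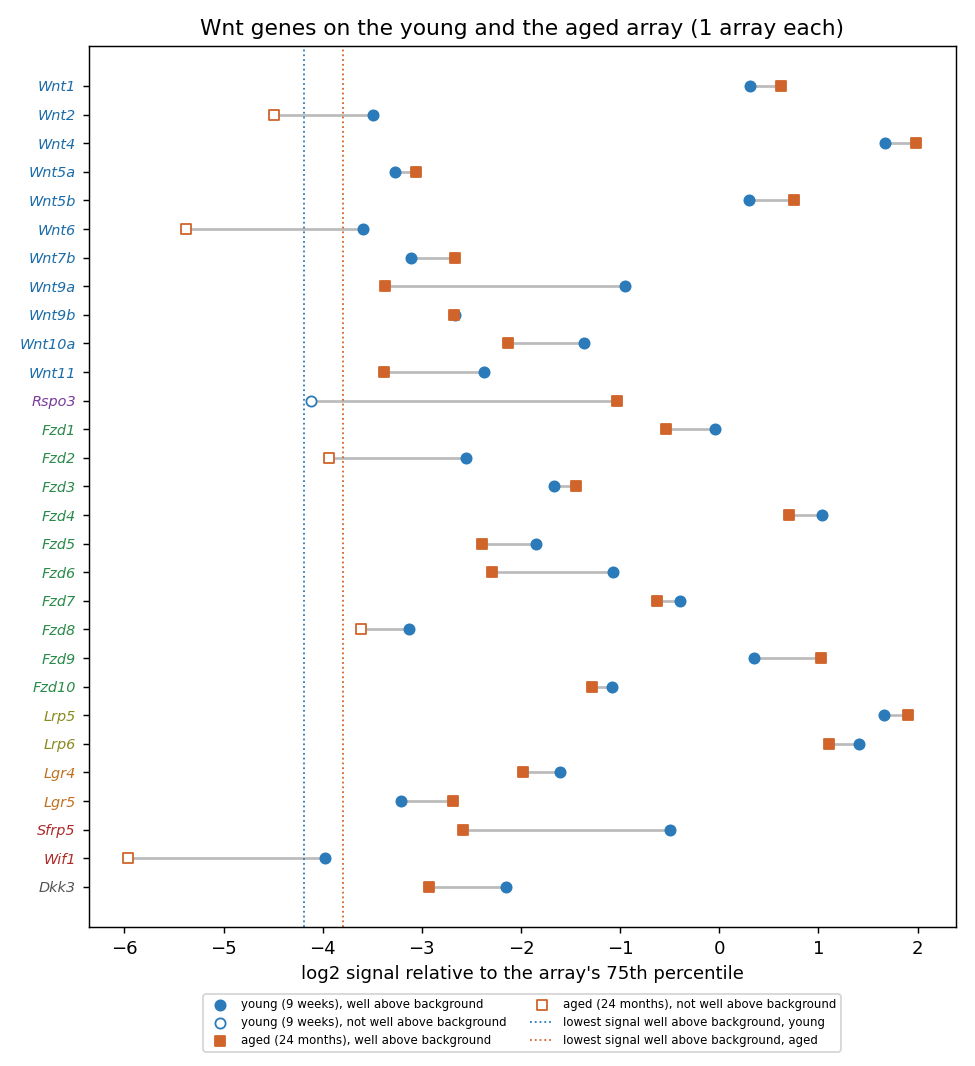
Relative log2 signal (horizontal axis) of the 29 Wnt genes on the young array (circles) and the aged array (squares), with gene names coloured by role. Open symbols are not well above background, and dotted lines mark the lowest signal well above background on each array. The widest gaps among genes filled on both arrays are those of Wnt9a and Sfrp5, and Rspo3 is the only gene open on the young array. Symbols are to be compared along a line and not between genes.

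**Figure D2:**
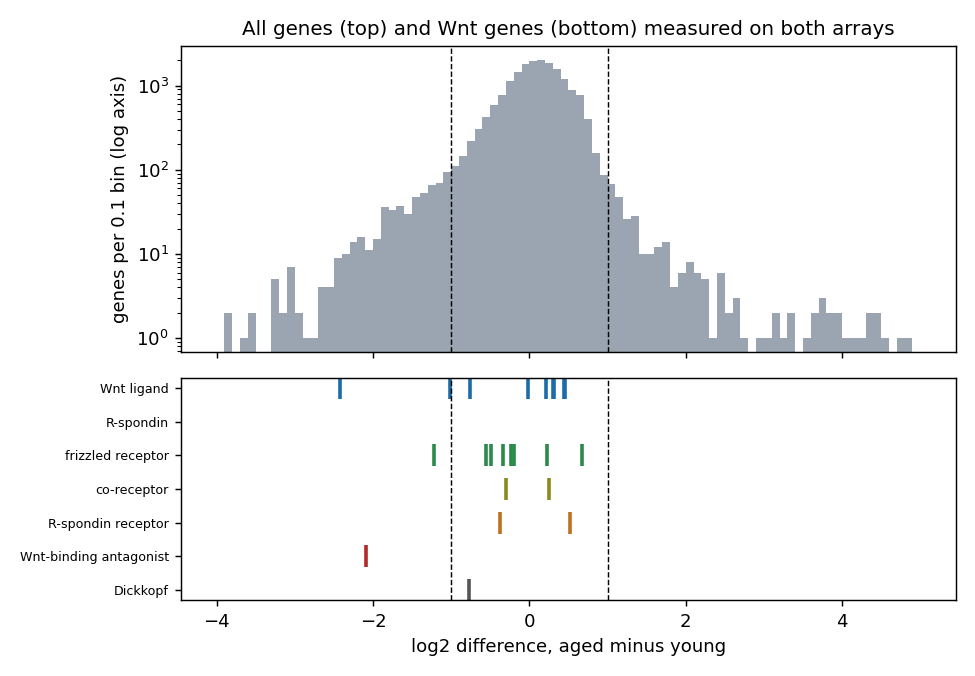
Log2 differences (aged minus young) of all 18745 genes measured on both arrays as a histogram on a log axis (top) and of the 23 Wnt genes among them by role (bottom). Dashed lines mark 2-fold. No Wnt gene lies right of the upper line, and 4 lie left of the lower.

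Among the Wnt ligands, Wnt9a had the largest difference and Wnt11 also passed 2-fold, both being lower on the aged array. Wnt9a gave 132 ± 13.6 in young and 19.1 ± 3.84 in aged cells, which are relative log2 signals of -0.95 and -3.37. Wnt9a thus fell by 2.42 ± 0.33 on the log2 scale, which is 5.36-fold lower. Of the 18745 genes measured on both arrays, 39 (0.208%) fell at least as far. With the normexp correction, which models the background of the raw signals and adds an offset of 50 that shrinks the differences of dim probes, the Wnt9a difference was -1.004, just past 2-fold. Wnt9a is a ligand known from joint and skeletal development, and the array holds a single probe for it.

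Wnt11 gave 49.5 ± 6.08 in young and 19.0 ± 4.06 in aged cells. Wnt11 is a ligand best known for signalling without β-catenin, in cell movement and polarity. It fell by 1.01 ± 0.36 on the log2 scale, or 2.02-fold, so that the threshold lay well within its error. Its difference was -0.84 with arrays centred on their medians, -0.86 after quantile normalization and -0.15 with the normexp correction, all short of 2-fold. The other Wnt11 probe was measured on the young array only, with signals of 45.6 and 11.9, and it too was lower in aged cells. Over all genes, 2.96% of those measured on both arrays fell at least as far as Wnt11 by its brightest probe.

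Wnt10a had signals of 99.5 and 45.2 on the young and aged arrays, a difference of -0.76 ± 0.24. Wnt10a is a ligand of ectodermal organs such as teeth and hair, and it lay below 2-fold, except with scaling to the spike-in control spots (-1.02). Wnt2 and Wnt6 were measured on the young array only, with young signals of 22.8 and 21.3 and aged signals of 8.83 and 4.76, and their limits were 1.23-fold and 1.15-fold lower. Both young signals lay close to the lowest signal that counts as well above background, which keeps the limits small.

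The other ligands measured on both arrays had differences between -0.02 and 0.46. Wnt4, a ligand with roles in kidney and gonad formation, had signals of 818 and 784, a difference of 0.31 ± 0.20. Wnt5b had signals of 316 and 335, a difference of 0.46 ± 0.21. Its second probe gave 107 and 109, and the 2 differences lay 0.06 apart. Both Wnt5b and its close relative Wnt5a act mainly through pathways without β-catenin. The signals of Wnt5a were 26.6 and 23.8, a difference of 0.21 ± 0.36. Wnt1, the founding member of the family, had signals of 318 and 304, a difference of 0.31 ± 0.21. Wnt7b, an epithelial ligand of lung and kidney, had signals of 29.6 and 31.2, a difference of 0.45 ± 0.28, although its second probe differed from this by 0.51. Wnt9b, a ligand of the kidney duct, had signals of 40.4 and 30.9, a difference of -0.02. None of these 6 ligands reached 2-fold under any setting tried, and the difference of Wnt9b was too near 0 to have a direction. Over the 9 ligands measured on both arrays, the median difference was 0.21, between -0.04 and 0.39 over the scalings.

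**Figure D3:**
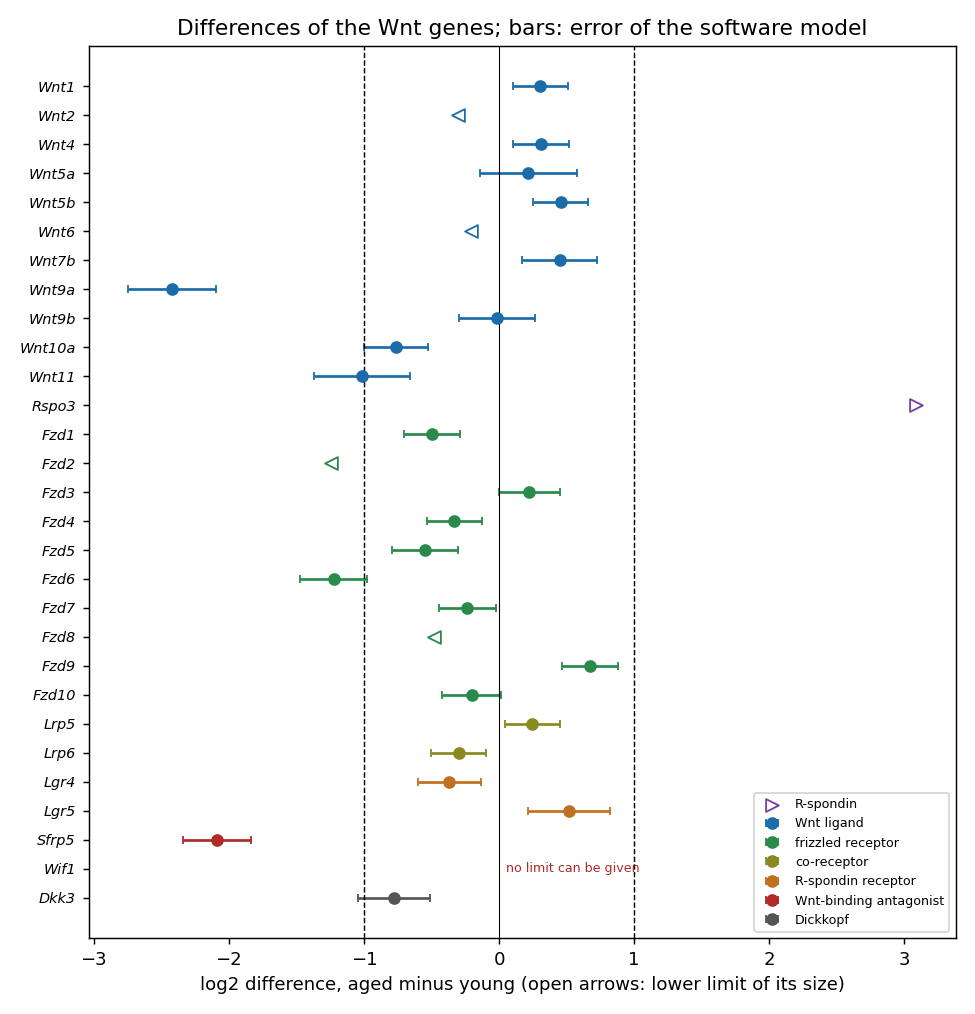
Log2 differences (aged minus young, horizontal axis) of the 29 Wnt genes, with words in place of a symbol for Wif1, for which no limit could be given. Filled points are genes measured on both arrays with the error of the software's model as bars, and open arrows are lower limits of genes measured on 1 array. Dashed lines mark 2-fold, which Wnt9a, Sfrp5, Fzd6, Fzd2 and Wnt11 pass downwards and Rspo3 upwards.

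Among the 4 R-spondins, Rspo3 was measured on the aged array only, and Rspo1, Rspo2 and Rspo4 on neither. Rspo3, an amplifier of Wnt signalling known as a product of stromal cells, gave 14.7 ± 3.49 in young and 96.8 ± 11.4 in aged cells. The young value was not well above background, although it lay just over the lowest signal on that array that was. The relative log2 signals were -4.12 and -1.03, so that Rspo3 was 8.49-fold higher, 3.09 ± 0.38 on the log2 scale. Here the limit equals the plain ratio of the relative signals, and the true ratio can lie below it. A limit at least as large was found for 41 (8.45%) of the 485 genes that the aged array alone measured. With the normexp correction, the limit was 1.30. The second Rspo3 probe, whose position lies farther along the transcript, had signals of 3.65 and 4.48, neither of them well above background, and thus does not show the increase. The increase rests on 1 spot of each array.

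The receptors for R-spondins showed no difference of 2-fold. Lgr4, the member of the group found in many epithelia, had signals of 84.1 and 50.3, a difference of -0.37 ± 0.23. Lgr5, a marker of intestinal stem cells, had signals of 27.7 and 30.7, a difference of 0.52 ± 0.31. Lgr6 was measured on neither array.

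All 10 frizzled receptor genes were measured on at least 1 array, 8 of them on both. Fzd6 and, by its limit, Fzd2 fell by 2-fold or more. Fzd6, a receptor of planar cell polarity in skin and hair, gave 122 ± 12.7 in young and 40.4 ± 5.44 in aged cells. It fell by 1.22 ± 0.25 on the log2 scale, or 2.34-fold, and 2.06% of genes measured on both arrays fell at least as far. With the normexp correction, the Fzd6 difference was -0.49.

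Fzd2, a receptor of Wnt5a among other ligands, gave 43.7 ± 5.61 in young and 12.9 ± 3.78 in aged cells, the latter not well above background. It was at least 2.36-fold lower, and the limit was -0.15 on the log2 scale with the normexp correction. Of the 2116 genes that the young array alone measured, 424 had such a limit or a larger one. Fzd8 was also measured on the young array only, with signals of 29.4 and 16.2. It was 1.40-fold lower, a limit that equals the plain ratio of the relative signals.

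The remaining frizzled genes lay below 2-fold on both sides under every setting tried. Fzd9, a receptor studied in brain and bone, went up the most, from a signal of 327 to 403, a difference of 0.67 ± 0.20. It was the highest difference among Wnt genes measured on both arrays, and 6.00% of all genes measured so had one at least as high. Fzd3, which with Fzd6 guides cell polarity, had signals of 80.7 and 72.9, a difference of 0.22 ± 0.23. Fzd1 had signals of 249 and 136, a difference of -0.50 ± 0.21. Fzd4, also a receptor for norrin in vessels, had signals of 524 and 321, a difference of -0.33 ± 0.20, and its second probe went from 296 to 144. Fzd5 differed by -0.55 by its brightest probe (71.3 and 37.6), whereas its second probe (35.8 and 31.0) lay 0.71 away and on the other side of 0. Fzd7 (195 and 128) and Fzd10 (121 and 81.5) differed by -0.23 and -0.20. Over the 8 genes measured on both arrays, 6 differences were below 0, and the median of -0.28 lay between -0.54 and -0.11 over the scalings.

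The co-receptors Lrp5 and Lrp6, which pass the signal of a bound ligand into the cell, were measured on both arrays and did not reach 2-fold under any setting tried. Lrp5 had signals of 809 and 742, a difference of 0.25 ± 0.20, and Lrp6 had signals of 681 and 427, a difference of -0.30 ± 0.20.

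Of the 9 genes for secreted antagonists, 3 were measured, and Sfrp5 alone passed 2-fold. Sfrp5, a decoy that binds Wnt ligands, gave 181 ± 18.4 in young and 32.9 ± 4.67 in aged cells, which are relative log2 signals of -0.50 and -2.59. Sfrp5 fell by 2.09 ± 0.25 on the log2 scale, which is 4.25-fold lower, and 81 genes (0.432%) of those measured on both arrays fell at least as far. It was -1.10 with the normexp correction and thus passed 2-fold under every setting. The array holds a single Sfrp5 probe.

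Dkk3, a Dickkopf relative whose action on the co-receptors is disputed, had signals of 57.6 and 26.0, a difference of -0.78 ± 0.27. It reached 2-fold only with the spike-in controls (-1.03). Wif1, another protein that binds Wnt ligands, had a signal of 16.3 in young cells and a substitute value of 3.17 in aged cells, and no limit could be given because the young signal lay too near the background.

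In the remaining 19 Wnt genes, none of the 26 probes passed the background on either array, with signals of at most 13.5 in young cells (Wnt8b) and 8.16 in aged cells (Sfrp2). On both arrays, 15 of these probes held a substitute value written by the software in place of a signal. The genes were the ligands Wnt2b, Wnt3, Wnt3a, Wnt7a, Wnt8a, Wnt8b, Wnt10b and Wnt16, the R-spondins Rspo1, Rspo2 and Rspo4, the receptor Lgr6, the antagonists Sfrp1, Sfrp2, Sfrp4, Dkk1, Dkk2 and Dkk4, and Axin2. Axin2, the feedback inhibitor that is widely used as a readout of β-catenin activity, had signals of 7.57 and 6.76 by the brighter of its 2 probes, so that these arrays give no value for it. Such a signal is a limit of the probe and does not show that the transcript was absent.

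**Figure D4:**
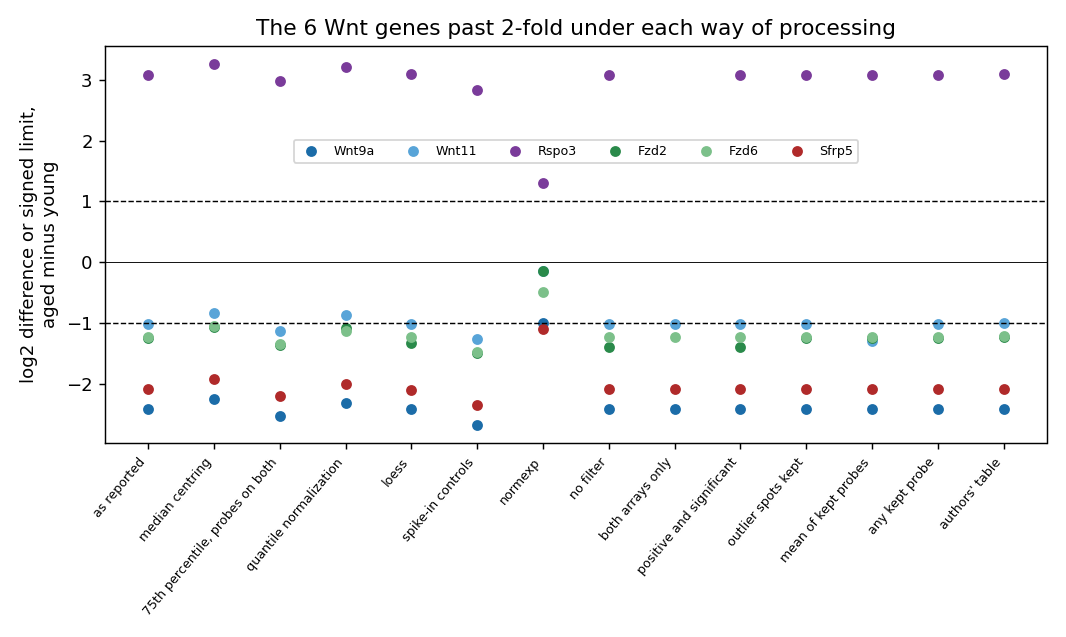
Log2 differences, or signed lower limits, of the 6 Wnt genes past 2-fold (vertical axis, aged minus young) as reported and under 13 other ways of processing (horizontal axis). Dashed lines mark 2-fold. Wnt9a and Sfrp5 lie below the lower line in every column, Wnt9a only just under normexp, where Fzd2, Fzd6 and Wnt11 lie above it. Wnt11 also lies above it with median centring and quantile normalization. Rspo3 and Fzd2 have no value where both arrays had to measure the probe.

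The remainder of the pathway was described by a list of 65 genes for ligand secretion, other membrane proteins, further inhibitors, intracellular parts, nuclear factors and target genes. Of these, 57 were measured on at least 1 array and 53 on both, with a median difference of -0.14. In aged cells, 3 of the 57 fell by 2-fold or more (Amer1, Tnfrsf19 and Lef1) and 1 rose (Tcf7), beside 5.14% and 2.53% of all genes. The median lay between -0.39 and 0.04 over the scalings, and with the normexp correction none of the 3 was 2-fold lower.

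Amer1, an adaptor of the complex that degrades β-catenin, had signals of 165 and 54.5, a difference of -1.23 ± 0.22. Tnfrsf19, a receptor gene activated by β-catenin, had signals of 297 and 98.3, a difference of -1.22 ± 0.21. Its second measured probe gave 106 and 68.8, a difference of -0.25. Thus the Tnfrsf19 decrease of 2-fold was seen by 1 of these 2 probes.

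The TCF and LEF factors bind DNA and carry β-catenin to its target genes. Lef1 was measured on the young array only, with signals of 45.9 and 9.81, and was at least 2.49-fold lower. Tcf7, also the T cell factor TCF-1, had a substitute value of 3.65 in young cells and a signal of 557 in aged cells, and was at least 51.2-fold higher, a limit of 5.68 on the log2 scale that was 3.23 with the normexp correction. The other 2 Tcf7 probes gave 3.54 and 5.31 in young and 9.52 and 4.95 in aged cells, none of them well above background. Among the T cell markers, Cd3e differed by 0.56, Cd3d by 0.62 and Cd4 by 0.05, and Cd8a was not well above background. Tcf7l1 and Tcf7l2, the family members common in epithelia, differed by -0.21 and 0.00.

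Apc2, Dvl3 and Csnk1d, named because their probes gave the highest signals of the list, which does not rank their RNA levels, did not pass 2-fold. Dvl3, which relays the signal from frizzled receptors, had signals of 6917 and 7860, a difference of 0.56 ± 0.20. Csnk1d, a casein kinase, differed by 0.03. Apc2, a relative of the tumour suppressor Apc, differed by -0.14 by a probe for an Ensembl transcript, with signals of 33258 and 23391. A second Apc2 probe, for the RefSeq transcript, gave 103 and 94.5, a difference of 0.25.

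Marker genes of the cell types that the selected cells could hold were set beside these values. Of 6 epithelial markers, 5 were measured on both arrays, with differences between 0.03 and 0.54 (Epcam 0.20), and Krt19 was measured on the young array only. All 9 fibroblast markers were measured on the young array, and Pdgfra and Pdgfrb were not measured on the aged array. Of the 9, Col1a1, Col1a2, Col3a1 and Pdgfra were 2-fold lower in aged cells. The summed level of all 9 relative to the 75th percentile was 19.4 in young and 9.66 in aged cells, with Dcn the brightest. Dcn and Lum differed by -0.98 and -0.91, whereas Thy1 and Fbln1 differed by 0.34 and 0.06. Between 3 and 6 of the 9 were 2-fold lower over the scalings. In such sums, the probes with the highest signals weigh most. Of 5 macrophage markers, Adgre1, C1qa, C1qb and Cd68 were 2-fold lower, and Csf1r differed by -0.62. Between 2 and 5 of these 5 were 2-fold lower over the scalings. Summed levels of all 5 were 43.7 and 25.4, with Csf1r the brightest. Of 6 endothelial markers, 0 passed 2-fold, and their summed levels were 7.97 and 5.44. Of 7 basal and myoepithelial markers, Cnn1 and Myh11 were lower, with differences of -2.14 and -1.83, while Mylk differed by -0.97, Acta2 by -0.08, and Krt5, Krt14 and Trp63 by 0.03 to 0.29. Between 1 and 3 of these 7 were 2-fold lower over the scalings. Summed levels of these 7 were 67.8 and 75.7, sums that rest mostly on Trp63 and do not follow Cnn1 and Myh11. Of 7 genes listed as acinar markers, Amy1 was higher and Smgc lower. The other members, Aqp5, Bhlha15, Prol1, Dcpp1 and Slc12a2, differed by -0.42 to 0.49. Amy1 did not pass 2-fold with the spike-in controls or with the normexp correction. Whether Smgc reads acinar cells in these glands was not tested. Of the granular duct markers and the glia and nerve markers, 0 of 5 and 0 of 4 passed 2-fold. Over the scalings, at most 1 of each did.

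In such RNA from many cells, fewer cells of a type and less RNA per cell cannot be told apart. The 4 fibroblast markers, 4 macrophage markers and 2 contractile markers past 2-fold were lower on the same array as Wnt9a, Wnt11, Fzd2, Fzd6 and Sfrp5. Smgc, listed as an acinar marker, was lower there too (-1.79). Rspo3 and Amy1 (1.23), also listed as an acinar marker, were higher there. The part of these markers in the differences of the Wnt genes was not tested.

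**Figure D5:**
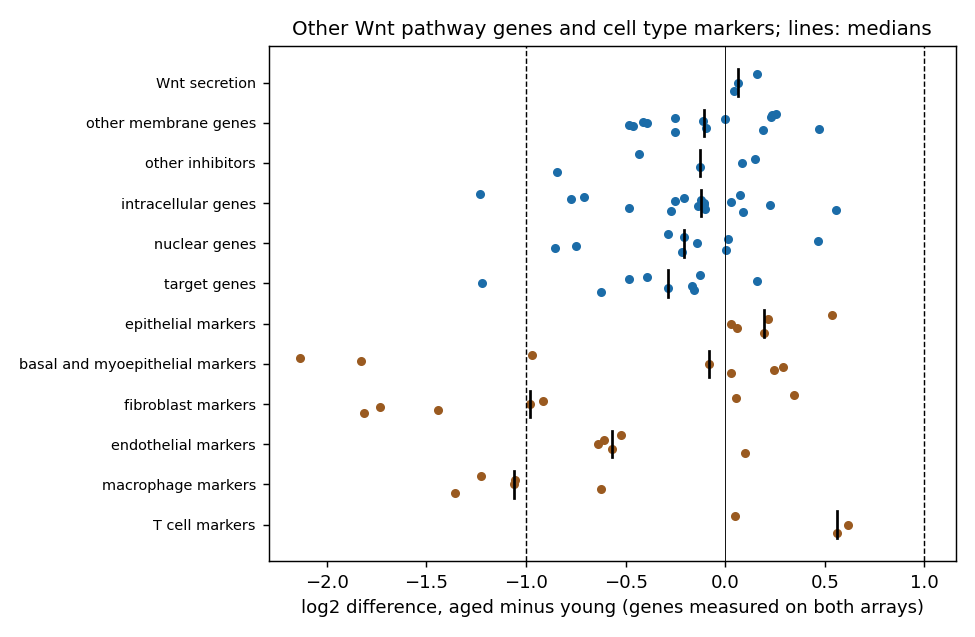
Log2 differences (aged minus young, horizontal axis) of genes measured on both arrays, for the other Wnt pathway genes by part (blue) and for cell type markers (brown), where a gene may stand in more than 1 pathway part. Black lines are medians and dashed lines mark 2-fold. The pathway medians lie between -0.28 and 0.06, and those of the fibroblast and macrophage markers at -0.98 and -1.06.

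RefSeq promoter windows on GRCm38.p6, from 250 bases before a gene's start onwards, were found for 31 of the 48 Wnt genes, in 34 windows. Of the 6 genes past 2-fold, Wnt9a, Wnt11 and Sfrp5 had one. The TCF and LEF motif CTTTGAT was searched on both strands, with ATCAAAG as its reverse, and no other motif was searched. It was found in 2 of the 34 windows (5.88%), those of Wnt5b and Wnt11, and in 3.73% of all 32851 windows. The 250 bases before the start of Wnt11 are shown because it is the only gene past 2-fold whose window holds the motif. They lie at chr7:98834862-98835111 on the forward strand, and the capitals mark the motif, which begins 51 bases before the start.
Wnt11 promoter: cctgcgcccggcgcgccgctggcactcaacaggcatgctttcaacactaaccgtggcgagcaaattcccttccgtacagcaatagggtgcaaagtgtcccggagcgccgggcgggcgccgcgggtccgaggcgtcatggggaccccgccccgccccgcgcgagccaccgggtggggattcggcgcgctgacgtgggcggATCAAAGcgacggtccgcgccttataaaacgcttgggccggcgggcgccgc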

How the data were processed

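RNA labelled with Cy3 was hybridized to 1 array per age. The deposited scanner files were written by Agilent Feature Extraction 12.0.3.1, per the labels and the file headers. They give each spot's intensity after a fitted background surface and multiplicative trends were removed, without scaling between arrays. The same deposited files give the raw intensity, its local background and marks for detection and outliers. The processed table that the authors deposited, made with GeneSpring, holds the ratio of each intensity to the array's 75th percentile and served as an alternative. No fold changes of the authors were used.

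Outlier spots on either array (90 on the young, 93 on the aged) were left out, spots of a probe were averaged, and 0 spots were saturated. Probes were named by the RefSeq accession on GRCm38.p6 where matched (33762 of 56597), and otherwise as in the files. The Wnt genes and gene lists were chosen with earlier results of these data known. The genes named were all members, the pathway genes past 2-fold, the 3 brightest of that list and the defining markers. With 1 array per age, neither a test nor leaving out a replicate was possible. The number of arrays limits precision. Alternatives were 6 scalings or background corrections (loess span 0.7, 3 iterations; normexp offset 50), 3 filters, outlier spots kept, 2 choices of probe and the authors' table. Python 3.11.15, pandas 2.3.3, R 4.3.3 and limma 3.58.1 were used, and the steps were tested on simulated data.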

Additional observations from a re-analysis of the deposited data

How the results depend on the processing

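Under 13 alternatives, none of Wnt9a, Sfrp5, Fzd6 and Wnt11 changed direction. Rspo3 and Fzd2 were mostly given by limits, whose direction could not change. Wnt9a and Sfrp5 passed 2-fold under all 13, and Rspo3 under the 12 that gave it a value. Fzd3 (-0.03), Lrp5 (-0.01) and Wnt5a (-0.04) fell below 0 only with the spike-in controls, which lower all differences by the same amount, and Wnt9b lay between -0.27 and 0.16. The count of Wnt genes 2-fold lower was 5 as reported, 2 with normexp and 10 without a filter. It was also 10 with the mark for a positive and significant signal in place of well above background. Of all genes, 5.14% were 2-fold lower as reported, 1.39% with normexp, 6.53% without a filter and 8.46% with that mark. Among the Wnt genes added without a filter, Dkk2, Wif1, Wnt8b and Wnt10b had substitute values in aged cells. The count of Wnt genes 2-fold higher was 1 as reported and 0 where both arrays had to measure the probe. That 1 gene was 16.7% of the calls as reported, 33.3% with normexp and 9.09% without a filter. The median of the Wnt genes was -0.23 as reported, -0.49 with the spike-in controls, -0.06 with centring on the median, -0.08 with normexp and -0.09 without a filter. Among pathway list genes, 3 were lower as reported, 7 with the spike-in controls, 0 with normexp, 5 without a filter, 5 with the mark for a positive and significant signal and 5 by any measured probe. Of the same list, 1 was higher as reported, 0 where both arrays had to measure the probe and 3 by any measured probe. Over all genes, 7.58% were lower with the spike-in controls and 6.36% by any measured probe. The share of all genes that were higher was 2.53% as reported, 1.52% where both arrays had to measure the probe and 3.2% by any measured probe. The median of all genes measured on both arrays shifted by 0.17 with centring on the median, by -0.11 with the 75th percentile over probes measured on both arrays, by -0.14 with loess and by -0.26 with the spike-in controls. Higher genes made up 32.9% of all calls as reported, 48.1% with centring on the median and 17.7% with the spike-in controls. The cause of these changes was not tested. No paired analysis was possible because each age has 1 array. Signal over background limits the values of genes near 14.1 to 14.3.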
